A study of Mus musculus with 4 samples.

Results

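Transcripts of 10 nuclear genes that encode chaperones and proteases of mitochondria were followed in sorted skeletal progenitors of newborn mouse hindlimbs. The genes were Hspd1, Hspe1, Hspa9, Dnaja3, Grpel1, Trap1, Lonp1, Clpx, Clpp and Htra2, chosen by name as genes of the mitochondrial unfolded protein response. The rule uses no measured value, but it was written with earlier results of these data known. Each was found as 1 row of the deposited count table, so that 10 of 55487 genes are described here. The bulk RNA sequencing compared 2 libraries labelled cKO (numbered 2 and 3) with 2 labelled WT (also numbered 2 and 3). All came from untreated pups at postnatal day 1 that carried the Rosa26mTmG reporter, and the sorted cells were live, Prx1-lineage and negative for CD45, Tie2 and Ter119. The titles name the groups Ecsit cKO and Ecsit WT, but the genotype field pairs the cKO titles with Ecsitfl/fl;Rosa26mTmG and the WT titles with EcsitPrx1;Rosa26mTmG, the reverse of what the titles say. EcsitPrx1 denotes floxed Ecsit removed by Cre under Prx1 regulatory sequence, which acts in the mesenchyme of the limb, and a Cre of this kind is also what switches on the GFP of the reporter, so that a genotype without it would leave no such cells to sort. How many pups went into a library is not given in the labels.

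Most proteins of mitochondria are made in the cytosol and enter the organelle unfolded. In the matrix, mitochondrial HSP70 pulls them in and folds them with a J-protein and a nucleotide exchange factor as partners, the HSP60 and HSP10 chaperonin folds a further set in a closed chamber, and the LON and ClpXP proteases degrade proteins that stay misfolded. When misfolded proteins build up, mammalian cells can raise the transcripts of these genes, a programme called the mitochondrial unfolded protein response, in which ATF5, ATF4 and CHOP have been described as regulators. Ecsit itself encodes a factor for the assembly of respiratory complex I.

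The label was first set against the level of the targeted gene. Counts are per gene, so they do not show whether particular exons of it were lost. Ecsit stood at 33.6 and 30.3 CPM (counts per 1e6, scaled with TMM factors) in cKO 2 and cKO 3, the libraries given that label, against 12.6 and 18.9 CPM in those labelled WT. It was thus higher where the titles say it was deleted (log2 fold change 1.02, SE 0.25, edgeR adjusted p = 0.0245), so the groups are called by their labels throughout, and every direction below would turn round if the labels were exchanged. Total counts ran from 18266573 to 20152872 per library. Genes of cytosolic ribosomal proteins took 10.2% and 10.3% of the counts in the libraries labelled cKO, against 3.23% and 6.34% in those labelled WT. The 11 skeletal progenitor markers were present in every library and summed to 70700 and 62000 CPM in the libraries labelled cKO, against 61100 and 61900 CPM in those labelled WT, nearly all of it from Col1a1, Col1a2 and Col3a1. With edgeR none of the 11 was called higher, against 14.1% of all genes tested. Of them 1, Msx2, was called lower (log2 fold change -1.38, adjusted p = 0.0481), against 14.3%. Twist2 was also called lower with DESeq2 (adjusted p = 0.0181) and with the exon length offset described below (adjusted p = 0.0302). With that offset Col1a2 (adjusted p = 0.0332) and Col3a1 (adjusted p = 0.048) were called higher. Prrx1, the gene behind the sort, stood at 212.7 and 194.2 CPM in the libraries labelled cKO, against 264.6 and 263.8 CPM in those labelled WT, and was not called (adjusted p = 0.181).

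Hspd1 and Hspe1 lie head to head on chromosome 1 and have opposite strands as templates, so that the promoter of one gene runs into that of the other. RefSeq promoter windows (250 bases before to 50 after a start, build GRCm38.p6) were matched for 8 of the 10 genes, and Hspa9 and Htra2 had no match. The windows of Hspe1 (chr1:55087898-55088197, plus strand) and of an Hspd1 start (chr1:55087883-55088182, minus strand) share 285 of their 300 bases, read on opposite strands, and the 2 starts are 216 bases apart. A further Hspd1 start has the window chr1:55088194-55088493. The Hspe1 window is printed because both genes of the pair use it, and those of Clpp (chr17:56990014-56990313, plus strand) and Grpel1 (chr5:36464935-36465234, plus strand) because they hold the same short letters. Capitals mark the matches, on either strand, to the heat shock element pairs GAANNTTC and TTCNNGAA, to the ETS site CCGGAAG that GABPA can bind, and to the CCAAT box.
Hspe1: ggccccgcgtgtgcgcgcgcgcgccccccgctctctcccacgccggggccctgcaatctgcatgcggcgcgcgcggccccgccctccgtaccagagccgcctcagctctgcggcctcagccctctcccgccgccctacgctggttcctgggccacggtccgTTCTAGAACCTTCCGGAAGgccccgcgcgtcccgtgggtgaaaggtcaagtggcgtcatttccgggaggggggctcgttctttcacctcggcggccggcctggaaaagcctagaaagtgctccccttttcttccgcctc
Clpp: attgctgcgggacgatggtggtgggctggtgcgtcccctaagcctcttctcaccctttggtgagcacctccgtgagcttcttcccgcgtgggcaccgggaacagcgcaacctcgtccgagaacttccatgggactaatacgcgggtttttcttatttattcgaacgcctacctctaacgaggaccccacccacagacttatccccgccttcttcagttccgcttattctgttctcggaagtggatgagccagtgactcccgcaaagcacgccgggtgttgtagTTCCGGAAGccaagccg
Grpel1: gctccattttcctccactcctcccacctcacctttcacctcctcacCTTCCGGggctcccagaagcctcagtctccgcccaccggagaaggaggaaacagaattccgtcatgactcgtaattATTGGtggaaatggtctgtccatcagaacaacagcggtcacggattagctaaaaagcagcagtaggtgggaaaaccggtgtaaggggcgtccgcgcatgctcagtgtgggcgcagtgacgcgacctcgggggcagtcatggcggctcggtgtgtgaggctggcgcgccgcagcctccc

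In the shared window the capitals form 1 run. It opens 89 bases before the Hspe1 start with 4 alternating units of the heat shock element, TTC and GAA in turn, each 2 bases from the next, and the ETS letters overlap its last units on both strands. Such a run of 4 stood in 5 of all 32851 windows, or 0.0152%, a count that includes the Hspd1 and Hspe1 windows and was made after the sequence had been seen. Single pairs are common: GAANNTTC was in 7.86% and TTCNNGAA in 8.52% of windows. The ETS letters were in windows of 5 of the 8 genes matched (Hspd1, Hspe1, Clpp, Dnaja3 and Grpel1), against 8.86% of all windows, where a gene can have several. The matches of Hspd1 and Hspe1 are 1 and the same stretch, and in Clpp the letters overlap a TTCNNGAA pair. CCAAT was in windows of 4 of the 8 genes, against 37.4% of all windows. The ATF4 and CHOP composite TGATGCAA, in 0.895% of all windows, and the C/EBP core ATGCAAT, in 2% of them, matched none of the 8 genes in these windows. The NRF1 core CGCATGCG, in 1.87% of all windows, was found for Clpx alone among the 8. These matches describe letters and not binding.

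Transcripts of Hspe1, Grpel1, Clpp, Htra2, Trap1 and Dnaja3 were higher in the libraries labelled cKO, by 1.75-fold (Dnaja3) to 2.38-fold (Hspe1). Hspd1, Hspa9 and Lonp1, which encode the chaperonin, mitochondrial HSP70 and the LON protease, had levels that overlapped between the labels and ratios of 0.986, 0.954 and 0.922. Clpx lay between, with no overlap but an adjusted p just above the threshold. In all, 6 of the 10 genes were called higher at an adjusted p under 0.05, against 14.1% of the 16157 genes tested. No gene of the 10 was called lower, against 14.3% of all genes tested, and the count stayed at 0 with DESeq2 and at p under 0.05 before adjustment. Both libraries labelled cKO stood above both labelled WT for 7 of the 10 genes, against 36.3% of all genes tested, and below them for none, against 36.2%. The median log2 fold change was 0.82 over the 10 genes and -0.02 over all genes tested.

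**Figure D1:**
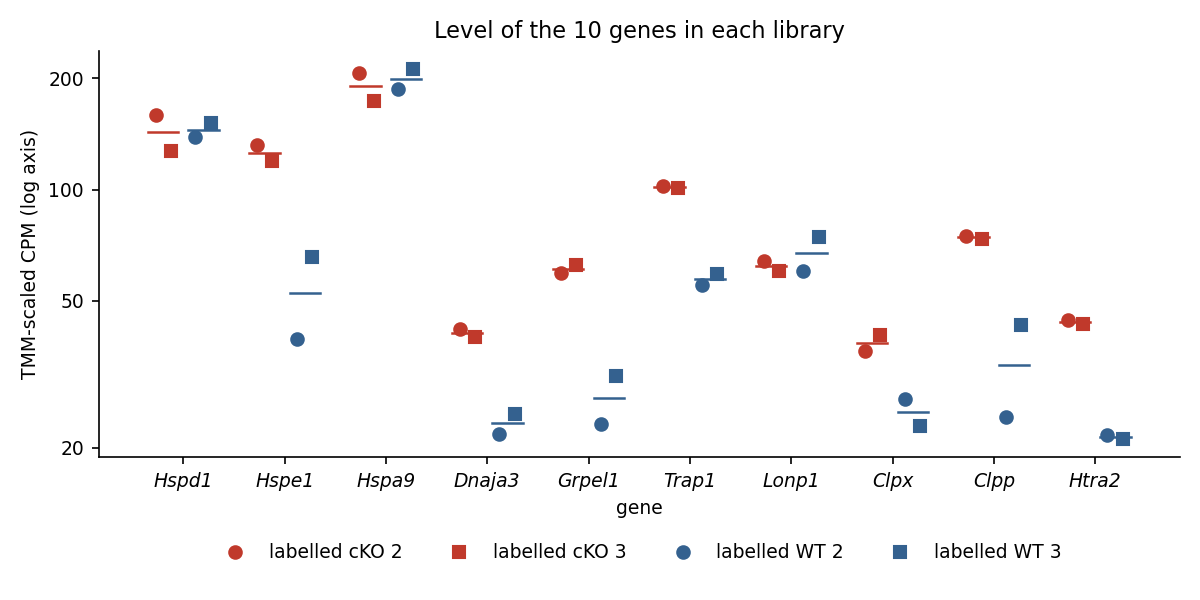
TMM-scaled CPM (log axis) of each of the 10 genes in the libraries labelled cKO (red, left) and WT (blue, right), with circles for number 2, squares for number 3 and bars for the mean of each label. The red and blue points overlap for Hspd1, Hspa9 and Lonp1 and are apart for the other 7 genes.

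Of the chaperonin pair, Hspe1 was called higher and Hspd1 was not. Hspd1 (ENSMUSG00000025980.14) encodes HSP60, the subunit of the folding chamber, and occupies chromosome 1 from 55077835 to 55088243 on the minus strand (GRCm38, GENCODE vM21). It stood at 159.0 and 127.5 CPM in the libraries labelled cKO, against 139.2 and 151.3 CPM in those labelled WT. The 2 libraries labelled cKO lay on either side of both labelled WT. The log2 fold change was -0.02 (95% interval -0.49 to 0.45, edgeR adjusted p = 0.947). Hspe1 (ENSMUSG00000073676.4) encodes HSP10, the lid that closes the chamber, and runs from 55088132 to 55091307 on the plus strand. It stood at 131.8 and 119.3 CPM in the libraries labelled cKO, against 39.5 and 65.9 CPM in those labelled WT. Both libraries labelled cKO were well above both labelled WT, which themselves differed by 0.73 on the log2 scale. Hspe1 had the highest fold change of the 10 genes, at 1.25 on the log2 scale (SE 0.26, adjusted p = 0.0183). The annotated exons of the pair overlap by 112 bases at their 5′ ends, 7.60% of the Hspe1 exons and 4.24% of the Hspd1 exons, where reads could be of either gene. Processed copies of Hspd1, Hspe1 and Hspa9 elsewhere in the genome held at most 29 counts in a library (Hspd1-ps3), and how reads that match a gene and its copy equally were counted is uncertain.

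The same levels can be read as a ratio within each library, which restates the difference between the 2 genes. Neither this ratio nor those further below were corrected for the trend of fold change with exon length described later. Per kilobase of exon, Hspe1 stood at 1.49 and 1.68 times the level of Hspd1 in the libraries labelled cKO, against 0.508 and 0.780 times in those labelled WT. By this measure Hspe1 exceeded Hspd1 in both libraries labelled cKO and in neither labelled WT. The mean log2 ratio differed by 1.33. An exact permutation test on such a ratio, two-sided with 6 arrangements of the 4 libraries, cannot give a p below 0.333, the value it gave here.

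Of the HSP70 machine, the motor itself was not called and both partners were higher. Hspa9 (ENSMUSG00000024359.10) encodes mitochondrial HSP70, also called mortalin, and lies on chromosome 18 from 34937414 to 34954357 on the minus strand. It stood at 206.7 and 173.9 CPM in the libraries labelled cKO, against 187.4 and 211.7 CPM in those labelled WT. The ranges overlapped, and the log2 fold change was -0.07 (95% interval -0.55 to 0.41, adjusted p = 0.817). Dnaja3 (ENSMUSG00000004069.17) encodes TID1, the J-protein that hands clients to mortalin and stimulates its ATPase, and lies on chromosome 16 from 4639989 to 4707695 on the plus strand. It stood at 41.9 and 39.9 CPM in the libraries labelled cKO, against 21.9 and 24.8 CPM in those labelled WT. The 2 libraries of each label were close together and the labels were apart (log2 fold change 0.81, SE 0.20, adjusted p = 0.0254). Grpel1 (ENSMUSG00000029198.3) encodes the nucleotide exchange factor that frees ADP from mortalin, and lies on chromosome 5 from 36464998 to 36474080 on the plus strand. It stood at 59.6 and 62.4 CPM in the libraries labelled cKO, against 23.2 and 31.4 CPM in those labelled WT. This gave a log2 fold change of 1.16 (SE 0.22, adjusted p = 0.0159), the second highest of the 10.

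Relative to mortalin, both partners were higher in each library labelled cKO than in either labelled WT. The level of Grpel1 per kilobase of exon was 0.352 and 0.439 times that of Hspa9 in the libraries labelled cKO, against 0.151 and 0.181 times in those labelled WT. For Dnaja3 the ratios to Hspa9 were 0.223 and 0.253 in the libraries labelled cKO, against 0.128 and 0.129 in those labelled WT. Both comparisons gave the smallest possible exact permutation p of 0.333. Grpel2, the paralog of Grpel1 in the same organelle, stood at 17.3 and 15.8 CPM in the libraries labelled cKO, against 13.7 and 13.7 CPM in those labelled WT, and was not called (log2 fold change 0.27, 95% interval -0.22 to 0.77, adjusted p = 0.355). The ratio of Grpel1 to Grpel2 per kilobase was 6.60 and 7.55 in the libraries labelled cKO, against 3.25 and 4.38 in those labelled WT (exact permutation p = 0.333).

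Trap1 (ENSMUSG00000005981.11) encodes the HSP90 of mitochondria, an ATP-dependent chaperone of the matrix, and lies on chromosome 16 from 4039971 to 4077827 on the minus strand. It stood at 102.4 and 100.9 CPM in the libraries labelled cKO, against 55.3 and 59.1 CPM in those labelled WT. The libraries of 1 label differed little and the labels were apart, with a log2 fold change of 0.83 (SE 0.18, adjusted p = 0.0200). The paralogs of the cytosol and the endoplasmic reticulum were not called with edgeR. Hsp90aa1, the inducible cytosolic form, gave a log2 fold change of -0.21 (95% interval -0.85 to 0.44, adjusted p = 0.596). Hsp90ab1, the constitutive cytosolic form, gave 0.58 (-0.02 to 1.18, adjusted p = 0.121) and was called higher with DESeq2 (adjusted p = 0.0410), and Hsp90b1, the form of the endoplasmic reticulum, gave -0.12 (-0.67 to 0.43, adjusted p = 0.720). The difference between Trap1 and these paralogs was not tested. Of the paralogs of mortalin, the constitutive cytosolic Hspa8 gave a log2 fold change of 0.71 (0.04 to 1.38, adjusted p = 0.0995) and was called higher with DESeq2 (adjusted p = 0.0284), and Hspa5, the HSP70 of the endoplasmic reticulum, gave 0.05 (-0.50 to 0.60, adjusted p = 0.886). The cytosolic J-proteins Dnaja1 and Dnaja2 gave log2 fold changes of -0.25 (adjusted p = 0.371) and 0.28 (adjusted p = 0.296).

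Of the matrix proteases, Clpp was called higher, and Lonp1 and Clpx were not. Lonp1 (ENSMUSG00000041168.10) encodes LON, which degrades oxidized and misfolded matrix proteins, and lies on chromosome 17 from 56614297 to 56626887 on the minus strand. It stood at 64.0 and 60.1 CPM in the libraries labelled cKO, against 60.3 and 74.3 CPM in those labelled WT. The ranges overlapped, with a log2 fold change of -0.12 (95% interval -0.58 to 0.34, adjusted p = 0.671). ClpXP is built of an unfolding ring, CLPX, and a proteolytic barrel, CLPP. Clpp (ENSMUSG00000002660.8) lies on chromosome 17 from 56990305 to 56996188 on the plus strand. It stood at 74.9 and 73.7 CPM in the libraries labelled cKO, against 24.2 and 43.0 CPM in those labelled WT. Its libraries labelled WT differed by more than those of any other of the 10 genes on the log2 scale, by 0.82, and the fold change between labels was 1.14 (SE 0.28, adjusted p = 0.0243). Clpx (ENSMUSG00000015357.10) lies on chromosome 9 from 65294260 to 65330658 on the plus strand. It stood at 36.5 and 40.4 CPM in the libraries labelled cKO, against 27.1 and 22.9 CPM in those labelled WT. All values labelled cKO were above those labelled WT, but the test was not passed (log2 fold change 0.62, 95% interval 0.14 to 1.10 without adjustment, adjusted p = 0.0557). The ratio of Clpp to Clpx per kilobase was 5.86 and 5.22 in the libraries labelled cKO, against 2.56 and 5.36 in those labelled WT. The ratio in WT 3 thus lay between those of the 2 libraries labelled cKO (exact permutation p = 0.667).

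Htra2 (ENSMUSG00000068329.12) encodes a serine protease of the intermembrane space that, once released to the cytosol, binds inhibitors of apoptosis, and lies on chromosome 6 from 83051266 to 83055273 on the minus strand. It stood at 44.5 and 43.4 CPM in the libraries labelled cKO, against 21.7 and 21.2 CPM in those labelled WT. The 2 libraries of each label were nearly level (SD 0.776 CPM for cKO and 0.339 CPM for WT), and the log2 fold change was 1.04 (SE 0.20, adjusted p = 0.0158). Of the exon bases of Htra2, 25.6% also lie in exons of Aup1 and 18.2% in exons of Loxl3, both on the opposite strand. The library preparation, as described, has no step that marks strand, so reads there cannot be told apart. Aup1 held 1770 and 1566 counts in the libraries labelled cKO, against 924 and 1370 in those labelled WT, and Loxl3 held 1933 and 1794, against 2142 and 1547. Grpel1 shares 11.6% of its exon bases with Tada2b, which held 186 and 168 counts in the libraries labelled cKO, against 407 and 280 in those labelled WT. Dnaja3 shares 4.09% of its exon bases with Vasn, on the same strand. Vasn held 2642 and 3127 counts in the libraries labelled cKO, against 3311 and 2843 in those labelled WT. Dnaja3 also shares 3.91% with Coro7, and Trap1 shares 2.1% with Dnase1, both on the opposite strand.

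**Figure D2:**
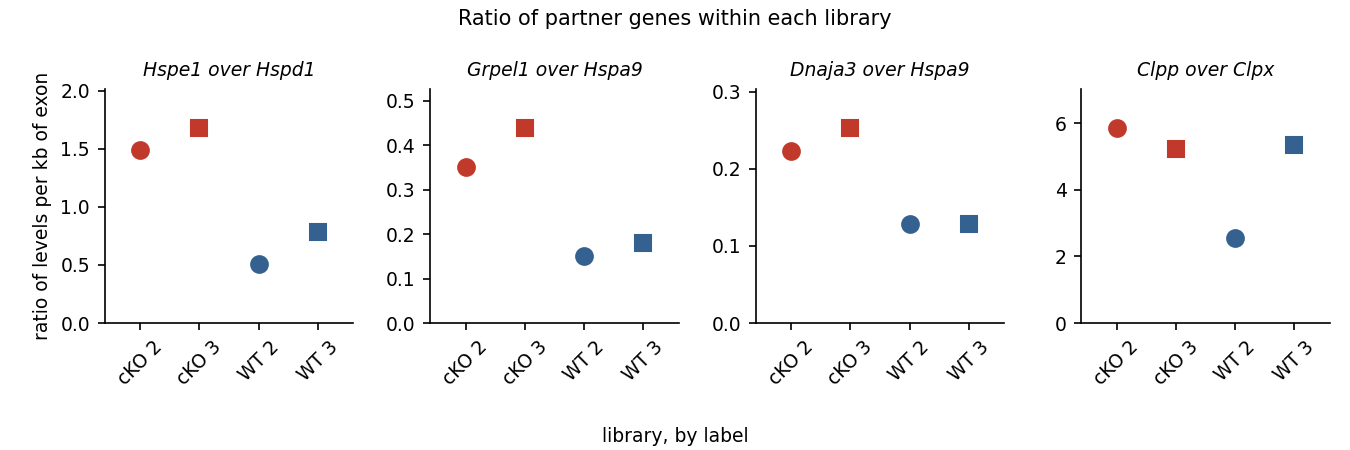
Ratio of the levels per kilobase of exon of partner genes within each library (linear axes from 0), with libraries labelled cKO in red on the left and WT in blue on the right. The ratios are not corrected for the trend of fold change with exon length. The ratios of Hspe1 to Hspd1 and of Grpel1 and Dnaja3 to Hspa9 are higher in both libraries labelled cKO, while that of Clpp to Clpx in WT 3 (5.36) lies between the libraries labelled cKO (5.86 and 5.22).

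The order of the genes by level differed between the labels as well. Like the ratios, these levels were not corrected for the trend of fold change with exon length described below. Scaled per kilobase of exon, Hspe1 was first in the libraries labelled cKO at a mean of 85.1 CPM per kilobase, followed by Clpp (60.8), Hspd1 (54.2), Hspa9 (44.2) and Trap1 (39.5). In the libraries labelled WT the first were Hspd1 (55.0), Hspa9 (46.3), Hspe1 (35.7), Clpp (27.5) and Trap1 (22.2). Some neighbours in this order were not apart beyond their spread. In the libraries labelled cKO, Clpp (61.3 and 60.2) met Hspd1 (60.2 and 48.3), and Hspd1 met Hspa9 (48.0 and 40.3), with gaps smaller than the spread of Hspd1. In the libraries labelled WT, Hspe1 (26.8 and 44.7) overlapped both Hspa9 (43.5 and 49.1) and Clpp (19.8 and 35.2). Trap1 (21.5 and 23) lay within the range of Clpp there. The other 5 genes were lower in both labels. Grpel1, Htra2, Lonp1, Clpx and Dnaja3 had means of 17.3, 14.9, 14.2, 11 and 10.5 CPM per kilobase in the libraries labelled cKO. Their means in the libraries labelled WT were 7.74, 7.27, 15.4, 7.16 and 5.96, so that Lonp1 led this set there. Exon length was the union of all annotated exons, which can exceed the length of the transcript in these cells.

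Fold changes ran with exon length in these libraries, and Hspe1 and Clpp have the shortest exons of the 10 genes (1474 and 1223 bases). When the protein-coding genes tested were split by exon length into 10 groups, the one that holds both had a median log2 fold change of 0.73, and the one with the longest exons had -0.77. The 2 libraries labelled WT showed such a trend between themselves, with medians of 0.56 and -0.48 for WT 3 minus WT 2. WT 3 was above WT 2 for 8 of the 10 genes. Over the 10 genes, Spearman's rho of fold change and exon length was -0.66, a description of genes measured in the same libraries. Levels were therefore also compared with an offset that removes the trend with length in each library. With it 6 of the 10 genes were called higher, against 16.1% of the genes tested, and none lower, against 12.7%, and these were the same 6 genes. The log2 fold changes were then 1.04 for Grpel1, 0.92 for Hspe1, 0.84 for Htra2, 0.79 for Clpp, 0.74 for Dnaja3 and 0.60 for Trap1, with adjusted p from 0.00607 (Grpel1) to 0.0216 (Trap1). Clpx gave 0.49 (adjusted p = 0.0764), Hspd1 -0.25 (0.308), Hspa9 -0.09 (0.732) and Lonp1 -0.13 (0.590). The order of the first genes thus changed, with Grpel1 ahead of Hspe1, and the set called did not.

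**Figure D3:**
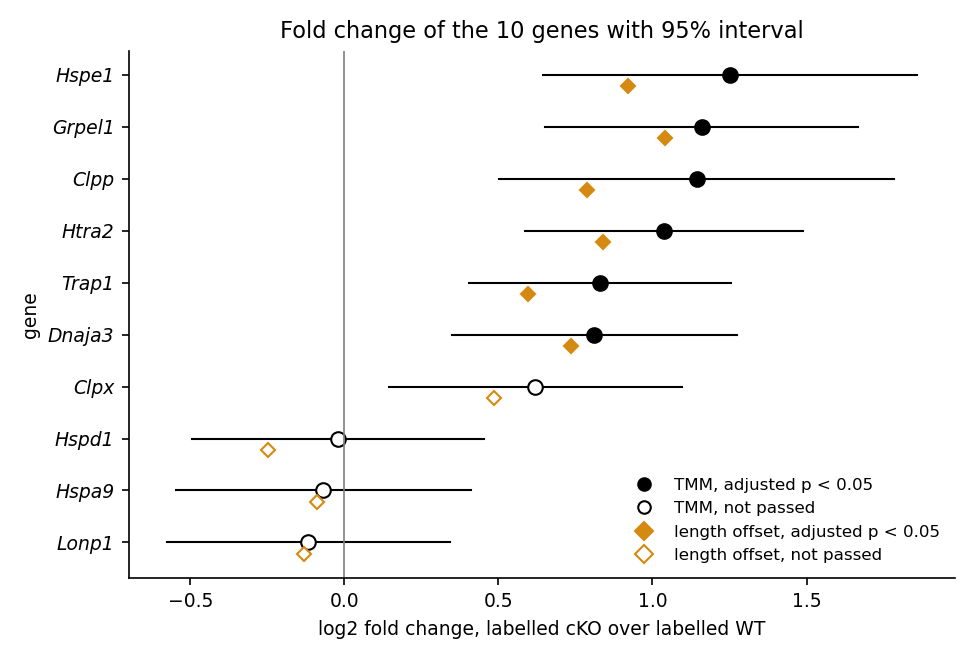
Log2 fold change of the 10 genes, labelled cKO over labelled WT, from edgeR with TMM scaling (circles, with the unadjusted 95% interval as a line) and with the exon length offset (diamonds), filled where the adjusted p is under 0.05. The 6 filled genes are the same with both, and the intervals of Hspd1, Hspa9 and Lonp1 span 0.

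Most of the calls were lost without a library labelled cKO, while the fold changes stayed close. Without cKO 2 none of the 10 genes was called, and without cKO 3 only Hspe1 was (edgeR adjusted p = 0.0475), each time with 1 library left for the label and assumed to vary like those of the other label. The log2 fold changes of Hspe1 were 1.19 without cKO 2 (SE 0.45) and 1.31 without cKO 3 (SE 0.45), against 1.25 with all libraries (SE 0.26), and those of Htra2 were 1.02 (SE 0.43) and 1.04 (SE 0.43), against 1.04 (SE 0.20). Over all genes the calls of higher level then numbered 527 and 506, against 2275 with all libraries. Without WT 2 and without WT 3 the log2 fold changes of Hspe1 were 0.94 and 1.67. Those of Htra2 were 1.06 and 1.02, and those of Clpx 0.75 and 0.51. Calls of higher level then rose over all genes tested, Clpx among them.

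Markers of several other cell types moved with the label, while no endothelial or keratinocyte marker was called. The 8 skeletal muscle markers summed to 159 and 153 CPM in the libraries labelled cKO, against 31.2 and 45.6 CPM in those labelled WT, and 5 of the 6 tested were called higher. The 6 erythroid markers summed to 2010 and 1910 CPM in the libraries labelled cKO, against 680 and 602 CPM in those labelled WT, with 5 of 5 tested called higher. The 5 chondrocyte markers summed to 4080 and 4070 CPM in the libraries labelled cKO, against 13900 and 6880 CPM in those labelled WT, and 5 of 5 were called lower. The 3 Schwann cell markers summed to 2.39 and 2.19 CPM in the libraries labelled cKO, against 7.82 and 7.12 CPM in those labelled WT, with 3 of 3 called lower, and the 6 haematopoietic markers summed to 7.45 and 8.86 CPM under cKO, against 3.48 and 3.14 CPM under WT, with 2 of 4 tested called higher. The 5 endothelial markers summed to 48 and 47.6 CPM in the libraries labelled cKO, against 57.3 and 49.1 CPM in those labelled WT. Most of this was Tek, at 34.6 and 28.8 CPM under cKO, against 39.7 and 33.7 CPM under WT. Of the rest, Cdh5 was higher in both libraries labelled cKO, Kdr was lower in both, and Pecam1 and Emcn overlapped. The 3 keratinocyte markers summed to 2.78 and 2.19 CPM under cKO, against 1.59 and 2.95 CPM under WT. None of either list was called. No marker in these lists was at 0 in all 4 libraries. Their part in the levels of the 10 genes was not tested, and in bulk libraries a different share of cells and a different amount of RNA per cell cannot be told apart.

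Beyond the 10 genes, 29 further genes of mitochondrial protein folding and degradation were read in the same way. Of the 12 other chaperones and co-chaperones, 10 were called higher (14.1% of all genes tested) and none lower (14.3%), with a median log2 fold change of 0.85. Fewer of the 12 were called without a library labelled cKO, and the calls over all genes tested also fell. With no filter on low counts 2 of the 12 were called higher, where 869 of the 31336 genes then tested were. The 4 with the smallest p were Stoml2 and Phb, scaffold proteins of the inner membrane, and the J-proteins Hscb, which serves the assembly of iron-sulfur clusters, and Dnajc30. Phb stood at 153.7 and 171.6 CPM in the libraries labelled cKO, against 51.1 and 86.7 CPM in those labelled WT (log2 fold change 1.24, adjusted p = 0.0189). Stoml2 gave 1.02 (adjusted p = 0.0171), Hscb 1.33 (0.0249) and Dnajc30 1.02 (0.0250). All 4 were also called with the length offset.

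Of the 17 other proteases and peptidases, 3 were called higher and none lower, a share near that over all genes tested (14.1% higher), with a median log2 fold change of 0.27. With the length offset 5 were called higher, with Yme1l1 (adjusted p = 0.0361) and Nln (adjusted p = 0.00921) added. Against the 3 of the main fit, most calls were lost without a library labelled cKO and more were made without one labelled WT. The calls over all genes tested moved in the same way. Mipep, the intermediate peptidase, stood at 28.8 and 29.2 CPM in the libraries labelled cKO, against 14.0 and 13.3 CPM in those labelled WT (log2 fold change 1.09, adjusted p = 0.0157). Immp1l, of the inner membrane peptidase that removes sorting signals, gave 1.34 (adjusted p = 0.0170), and Pmpcb, of the matrix processing peptidase, gave 0.88 (adjusted p = 0.0238). Over the 29 genes, 13 were called higher and none lower with edgeR, 1 was lower at p under 0.05 before adjustment (Metap1d, singled out after its values were seen, log2 fold change -0.70, adjusted p = 0.0593), and none was lower with DESeq2. Metap1d, a methionine aminopeptidase, was called lower with the length offset (adjusted p = 0.0415). The difference between the chaperone and protease lists was not tested.

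**Figure D4:**
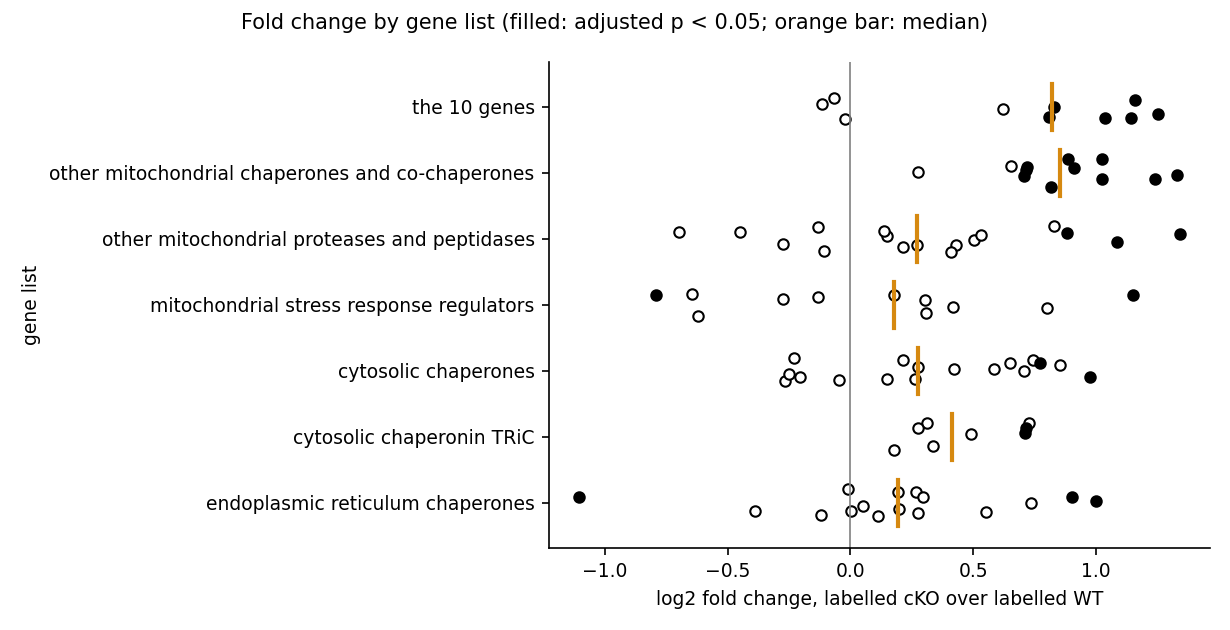
Log2 fold change, labelled cKO over labelled WT, of the 10 genes and of the other gene lists, 1 circle per gene, filled where the adjusted p is under 0.05, with the median as an orange bar. The 10 genes and the other mitochondrial chaperones and co-chaperones have medians of 0.82 and 0.85, and the cytosolic and endoplasmic reticulum lists have medians between 0.20 and 0.41. The median of the other mitochondrial proteases and peptidases, 0.27, lies within that range, and that of the regulators is 0.18.

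Of 11 regulators described for the response, 1 was called higher and 1 lower, against 14.1% and 14.3% of all genes tested, with a median log2 fold change of 0.18. With the length offset Dele1 was called higher (adjusted p = 0.0126) and Cebpb lower (adjusted p = 0.0229). With DESeq2, 2 were called higher. Fewer regulators were called without a library labelled cKO and more without one labelled WT, and the calls over all genes tested moved in the same way. Atf5, the transcription factor closest to the regulator first found in worms, stood at 171.8 and 127.1 CPM in the libraries labelled cKO, against 55.6 and 79.1 CPM in those labelled WT. It was higher in both libraries labelled cKO (log2 fold change 1.15, adjusted p = 0.0189). Eif2ak4, the kinase GCN2 that senses amino acid shortage, gave -0.79 (adjusted p = 0.0333) and was not called with the length offset (adjusted p = 0.0894). Atf4 and Ddit3, which encodes CHOP, were not called, with log2 fold changes of 0.31 (adjusted p = 0.333) and 0.30 (adjusted p = 0.373).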

How the data were processed

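Polyadenylated RNA of 4 libraries was sequenced, and the authors deposited raw counts per gene, not normalized and not pooled. The study's methods name STAR, mm10, a GENCODE annotation and featureCounts. The submitters' processing notes instead give GRCh38.p12 as the build, with STAR 2.6.1b, DESeq2 1.28.1 and HTSeq 0.11.3. That build is human, whereas the gene IDs of the table are of mouse, and which counting tool made it is not stated. Of these IDs 99.4% are in GENCODE vM21 (GRCm38), the source of positions and exon lengths.

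The 2 labels were compared by the quasi-likelihood test of edgeR 4.0.16 (R 4.3.3) with the label as the single term, after TMM scaling and a filter on low counts (filterByExpr, minimum 10). P-values were adjusted by Benjamini-Hochberg over 16157 genes, which included all 10 genes described. Intervals are 95%, from the same fit and unadjusted. Alternatives were DESeq2 1.42.0 with and without ashr 2.2.63, other scaling and filters, a replicate block, an exon length offset (a lowess fit, within each library, of log2 CPM with pseudocount 0.5 against log10 length, span 0.3) and leaving out each library. Scripts were tested on simulated data. The 10 genes and the lists were chosen with earlier results of these data known. Named were the 10 genes, Ecsit, paralogs, and up to 4 called genes per list and direction with the smallest p. Atf4, Ddit3, Metap1d, Yme1l1, Nln, Dele1, Cebpb, Prrx1, Msx2, Twist2, Col1a2, Col3a1, Tek, Cdh5, Kdr and genes overlapping the 10 were added after their values were seen. The labels do not say that libraries came from separate animals, so p-values reflect only how much these libraries vary, which may be technical. Depth was 18266573 to 20152872 counts. A gene first listed among the regulators is not reported here and is in none of the list counts.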

Additional observations from a re-analysis of the deposited data

How the results depend on the processing

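Among the 10 genes, 6 were called higher and none lower with DESeq2 size factors and with TMM without ribosomal protein and mitochondrial DNA genes. The counts were the same with at least 10 counts in every library, with the exon length offset and with DESeq2. They were also the same with DESeq2 with ashr and a fold limit of 1.5. That limit, set on the main edgeR fit after the test, removed none of its 2275 higher and 2314 lower calls over all genes, so it was no separate check. With no filter on low counts 4 were called. Leaving out a library gave 0 to 7 calls of higher level. The log2 fold changes near 0 changed sign: that of Hspd1 was 0.018 with no filter and ran from -0.18 to 0.11 with a library left out, that of Hspa9 from -0.19 to 0.036, and that of Lonp1 from -0.26 to 0.045. Among the 29 further mitochondrial genes, 13 were called higher, 4 with no filter and 1 to 17 with a library left out. Of these 29, 1 (Metap1d) was called lower with at least 10 counts in every library, with the length offset and with the length offset and block, and 0 to 2 (Lactb as well, without WT 2) with a library left out. Whether the numbers 2 and 3 pair libraries is not given in the labels. Same-numbered deviations had a correlation of -0.10 over genes, which cannot decide it, since it rests on 1 difference per label. A replicate block gave 6 of the 10 and 14 of the 29 higher, and 2615 genes higher over all genes tested, against 2275. The crossed pairing, chosen after seeing the data, gave 6 of the 10 and 14 of the 29 higher and 1 of the 29 lower. With 2 libraries per label, and 1 where a library was left out, smaller differences were not detectable. The cause of these changes was not tested.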

Other observations

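Chaperones of other compartments were read as a background to the mitochondrial ones. Of 17 cytosolic chaperones, 2 were called higher with edgeR, against 14.1% of all genes tested: Hspa1b, an inducible HSP70, stood at 33.0 and 25.4 CPM in the libraries labelled cKO, against 11.9 and 17.8 CPM in those labelled WT (log2 fold change 0.97, adjusted p = 0.0319), and Stip1, the co-chaperone that links HSP70 to HSP90, gave 0.77 (adjusted p = 0.0270). Stip1 was not called with the length offset (adjusted p = 0.0590). The count moved with the setting: 6 with DESeq2, 4 with the replicate block, 3 with the length offset and 0 with no filter. With no filter 869 of the 31336 genes then tested were called higher. Of the 3 with the length offset, 1 (Hspa1b) was also called in the main fit. The calls were lost without a library labelled cKO and rose in number without one labelled WT. The calls over all genes tested also fell and rose in this way. Of the 8 subunits of the cytosolic chaperonin TRiC, Cct3 and Cct7 were called higher, with log2 fold changes of 0.71 and 0.71 (adjusted p = 0.0422 each). Of the 8, 3 were called with DESeq2, 1 with the replicate block and 0 with no filter. Here too the calls were lost without a library labelled cKO and rose in number without one labelled WT.

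In the endoplasmic reticulum, 2 of 16 chaperones were called higher and 1 lower, shares no higher than those over all genes tested (14.1% and 14.3%). With DESeq2 4 were called higher. The calls in both directions were lost without a library labelled cKO, and more were called higher without one labelled WT. Over all genes tested the calls also fell and rose in this way. Sil1, a nucleotide exchange factor for Hspa5, stood at 57.3 and 58.9 CPM in the libraries labelled cKO, against 25.0 and 33.1 CPM in those labelled WT (log2 fold change 1.00, adjusted p = 0.0187). Sdf2l1 gave 0.90 (adjusted p = 0.0364) and was not called with the length offset (adjusted p = 0.0942). Dnajc3, a J-protein that inhibits a kinase of the stress response, stood at 45.7 and 43.4 CPM in the libraries labelled cKO, against 108.7 and 82.8 CPM in those labelled WT, and fell by 1.10 on the log2 scale (adjusted p = 0.0159).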
